A study of Arabidopsis thaliana with 434 samples.

Results

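ANAC019 (AT1G52890), ANAC055 (AT3G15500) and ANAC072 (AT4G27410, also named RD26) were followed in Arabidopsis thaliana leaves as they aged and in lines that target single NAC genes. The 3 genes were picked by locus, not by a measured value, and are 3 of the 49 NAC genes on the probe set. NAC proteins are plant transcription factors that share a DNA-binding NAC domain, and these 3 are close relatives within the stress-responsive branch known as SNAC-A. Dehydration, abscisic acid and jasmonate are known to induce them. ANAC072 acts in abscisic acid signalling, and ANAC019 and ANAC055 act in jasmonate signalling downstream of MYC2; all of them are known to promote chlorophyll breakdown in the ageing leaf.

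Transcripts were counted with the NanoString nCounter, which counts labelled probes bound to RNA with no amplification step. Leaves of 4 ages, 14, 18, 22 and 26 d, came from 49 lines, each named after the NAC gene it targets, and from wild type; the labels name no stress treatment. The lines are T-DNA insertion lines of the SALK, SAIL or GABI-KAT collections, which one for which line is not stated, and all stand in the Columbia (Col) background of the wild type. Each of 48 lines, anac019, anac055 and anac072 among them, had 2 samples at each age and the line labelled anac092 had 4, while wild type had 10 samples at the first age and 8 at every other. Each sample title holds a letter, A, B, C or D, and a number; wild type was sampled under every letter, and anac019, anac055 and anac072 all stood under letter A, so that these lines share the same wild-type samples. Whether samples of a group were separate plants is not in the labels, so p-values reflect the spread among these samples alone, and it may be technical. Where insertions and probes lie is not stated in the labels, and no sequences of the genes or probes were used.

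Total counts ran from 31613 to 687229 a sample over 434 samples, with a median of 225519. Normalised counts were obtained by dividing raw counts by the mean count of the references UBQ10, TUB2, ACT7 and ACT2 in the same sample, then multiplying by the mean of that quantity over the samples used. Each probe has its own efficiency, so levels are compared within a gene and never between genes. At 18 d 2 libraries went against their labels and were left out. Normalised counts of ANAC055 and ANAC053 were 3.87 and 213 in the one labelled anac053 A1 and 164 and 5.36 in the one labelled anac055 A1, against 132 ± 81.5 of ANAC055 and 215 ± 58.2 of ANAC053 in wild type (SD, n = 8). This leaves anac055 with 1 sample at 18 d. Whole leaves hold vascular cells too, and the probe set has no mesophyll marker. The summed normalised count of the 5 xylem NACs ran from 348 to 898 in wild type at 26 d, against 304 to 606 at 14 d, and that of the 2 phloem NACs from 5.09 to 18.1 at 26 d, against 51.3 to 90.2 at 14 d. Such sums add probes of different efficiency and hide their members: by the test described below, ANAC007 (-1.53), ANAC010 (-2.02) and ANAC101 (-1.22) of the xylem genes were lower at 26 d than at 14 d on the log2 scale, ANAC104 (1.03) was higher, and ANAC045 of the phloem genes was lower (-2.95). The part of these shifts in the results below was not tested. Samples also shared levels by the number in their title: at 22 d ANAC055 was lower in sample 1 than in sample 2 in 20 of 20 groups of letter B and 9 of 9 of letter C, and ANAC019 in 18 of 18 of letter A, anac019 itself left out. Where the number as a block changes a call, its value stands beside the result. In whole leaves, fewer cells of a type and less RNA per cell cannot be told apart.

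Scaled to the reference genes, all 3 transcripts were higher in wild-type leaves at 26 d than at 14 d, but by very different amounts. In the quasi-likelihood test of edgeR, Benjamini-Hochberg adjusted over 47 genes, ANAC055 rose by 3.59 on the log2 scale (SE 0.35), ANAC019 by 2.74 (SE 0.32) and ANAC072 by 1.07 (SE 0.16). These adjusted p-values were 1.9e-18, 8.2e-14 and 1.6e-10. Of all 47 genes tested, 83% were called higher at 26 d, so being called is no distinction of these 3 genes.

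ANAC055 rose at the first step already. Its lowest, median and highest normalised counts in wild type were 7.42, 31.8 and 152 at 14 d, 57.8, 109 and 273 at 18 d, with 127, 260 and 569 at 22 d. At 26 d they were 227, 502 and 630. Between 14 and 18 d the samples overlapped, with 3 of 8 samples at 18 d above every sample at 14 d, whereas all 8 samples at 26 d lay above every one at 14 d. The log2 change at 18 d against 14 d was 1.605 (SE 0.36, edgeR adjusted p = 4.6e-05), in a comparison in which 25.5% of the genes were called higher. At 22 d against 18 d it was 1.39 (adjusted p = 0.00033), where 68.1% were called higher, and at 26 d against 22 d it was 0.60 (adjusted p = 0.15; 0.69 and 0.022 with the sample number as a block), where 23.4% were. The lowest 14 d sample of ANAC055 held 7 raw counts, near the mean of 5.19 raw counts of the negative control probes, so background limits how low that level could be read.

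ANAC019 was not called at 18 d and was called higher from 22 d on. Its lowest, median and highest normalised counts were 74.7, 187 and 370 at 14 d, 173, 193 and 609 at 18 d, with 315, 695 and 2259 at 22 d. At 26 d they were 772, 1505 and 2025. Apart from 1 sample at 609, the 18 d samples lay inside the range of 14 d; 7 of 8 samples at 22 d and 8 of 8 at 26 d lay above it. At 18 d against 14 d the log2 change was 0.16 (SE 0.33, edgeR adjusted p = 0.77), and without the sample D1 of 18 d, the one at 609, it was -0.051. At 22 d against 18 d ANAC019 rose by 1.87 (SE 0.34, adjusted p = 2.6e-06), and at 26 d against 22 d the difference was 0.70 (adjusted p = 0.079). That last difference passed the test with the sample number as a block (0.77, adjusted p = 0.019), and also without sample A2 (0.97, adjusted p = 0.027) or without sample D2 (0.96, adjusted p = 0.031) of 22 d.

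ANAC072 changed least at 22 and 26 d against 14 d. Its lowest, median and highest normalised counts were 845, 1245 and 2883 at 14 d, 1684, 1960 and 2543 at 18 d, with 1980, 2521 and 4154 at 22 d. At 26 d they were 2257, 3092 and 4113. Neighbouring ages overlapped throughout, and 1 sample at 14 d (B1, 2883) lay above 2 of the 8 samples at 26 d. The log2 changes were 0.42 at 18 d against 14 d (SE 0.16, edgeR adjusted p = 0.02), 0.40 at 22 d against 18 d (adjusted p = 0.024) and 0.25 at 26 d against 22 d (adjusted p = 0.2). Both early steps were lost when single wild-type samples were left out: without sample D2 of 14 d the first was 0.31 (adjusted p = 0.16), and without sample A2 of 22 d the second was 0.28 (adjusted p = 0.12). At 22 d against 14 d, where 78.7% of the genes were called higher, ANAC072 rose by 0.82, ANAC019 by 2.03 and ANAC055 by 2.996. Calls of ANAC072 at 18, 22 and 26 d against 14 d all depended on the scaling, as given below. Its change at 22 d against 18 d turned sign with TMM and with DESeq2, and that at 26 d against 22 d with DESeq2.

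**Figure D1:**
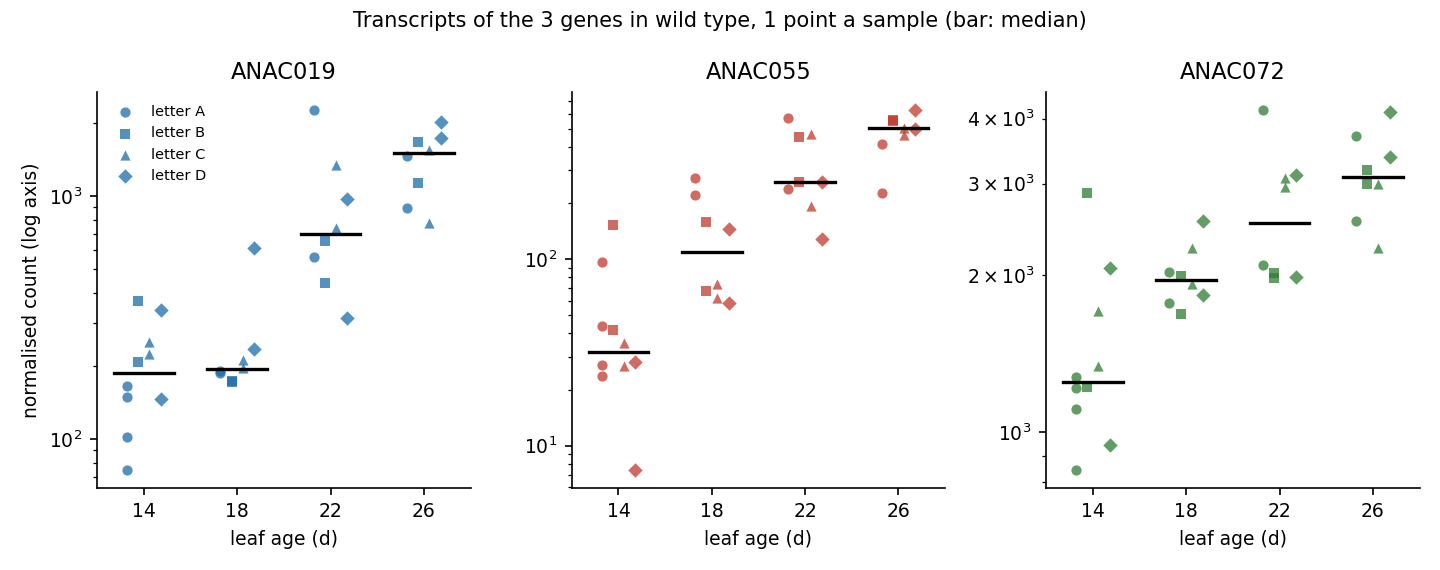
Normalised counts (log axis) of ANAC019, ANAC055 and ANAC072 in wild-type leaves at 14, 18, 22 and 26 d of leaf age, 1 point a sample, with the marker showing the letter of the sample title and the bar the median of 10 samples at 14 d and of 8 at the other ages. All 26 d samples of ANAC019 and ANAC055 lie above those of 14 d; ANAC072 overlaps.

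Letters gave the same direction at the ends of the series and not always in between. Within each of the 4 letters, wild-type samples at 26 d and at 14 d did not overlap for any of the 3 genes. Letters B, C and D hold only 2 samples at each age, and such small groups part easily. How many of the 47 genes parted likewise, within letters or over all samples, was not counted, while 83% were called higher at 26 d. Lack of overlap alone therefore does not set these 3 genes apart. For ANAC055 the log2 ratio of the letter means at 26 d against 14 d ran from 2.52 in letter B to 5.00 in letter D, for ANAC019 from 2.28 in letter B to 3.26 in letter A, and for ANAC072 from 0.59 in letter B to 1.49 in letter A. At 22 d against 14 d the ANAC072 samples overlapped in letters B and D and the ANAC019 samples in letter D. In letter B, ANAC072 had letter means of 1998 normalised counts at 22 d and 2050 at 14 d. At 18 d against 14 d the letters differed for all 3 genes. ANAC055 was higher in every letter, by 2.37 in letter A, 2.52 in D and 1.12 in C, but by 0.22 with overlapping samples in B. ANAC072 was 0.77 higher in letter A, 0.45 higher in C, 0.54 higher with overlap in D, and -0.16 with overlap in B. ANAC019 was 0.62 higher in letter A, 0.80 higher in letter D with overlapping samples, and lower in letters B (-0.74) and C (-0.22).

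Most NAC transcripts on the probe set were higher in older leaves, so the 3 genes were also set against the median of the 47 genes, which was 1.12 on the log2 scale at 26 d against 14 d. ANAC055 exceeded that median by 2.47 and ranked 2nd of 47 by size of change, and ANAC019 exceeded it by 1.62 and ranked 5th. ANAC072 lay 0.056 below it (-0.056) and ranked 25th. Scaling by TMM over all genes in place of the references moved the median to 0.30, a shift of -0.83, and the size factors of DESeq2 moved it to 0.18, a shift of -0.94. Relative to their medians the 3 genes kept their places, with ANAC055 at 2.54 and 2.52, ANAC019 at 1.64 and 1.63, and ANAC072 at -0.016 and -0.029 under TMM and DESeq2. The split of all calls at 26 d was 39 higher and 7 lower with the references, 24 and 14 with TMM, and 20 and 15 with DESeq2. The change of ANAC072 itself was 0.28 with TMM (adjusted p = 0.042) and 0.16 with DESeq2 (adjusted p = 0.30), so whether ANAC072 counted as higher at 26 d depended on the scaling, whereas ANAC055 (2.83 with TMM and 2.71 with DESeq2) and ANAC019 (1.94 and 1.82) were called higher under both. At 22 d against 14 d ANAC072 was called under neither (0.26 with TMM, adjusted p = 0.085, and 0.18 with DESeq2, adjusted p = 0.25). At 18 d against 14 d it was called with TMM (0.33, adjusted p = 0.034) and not with DESeq2 (0.29, adjusted p = 0.064).

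**Figure D2:**
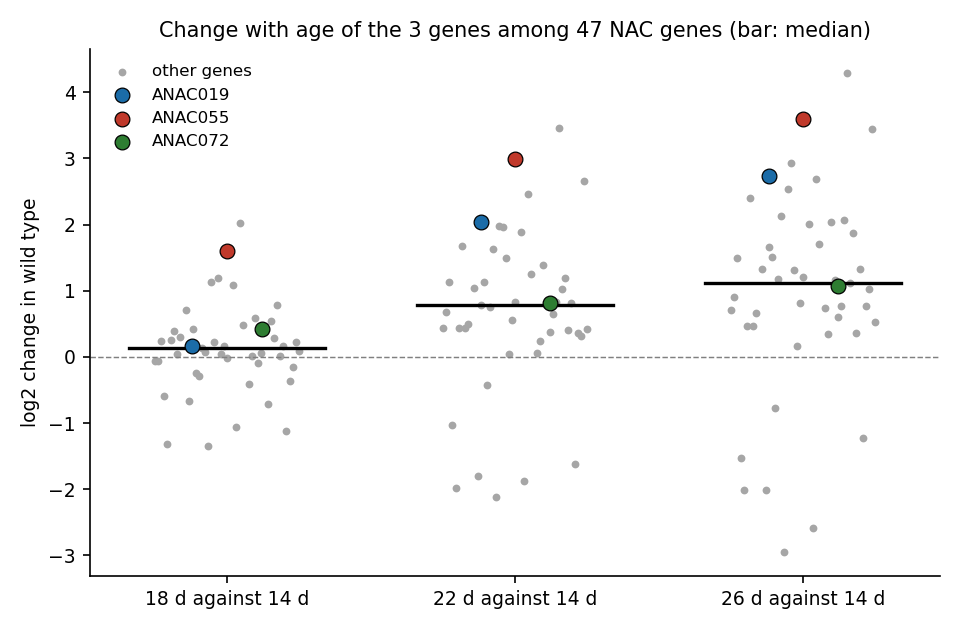
Log2 change in wild type at 18, 22 and 26 d, each against 14 d, of ANAC019, ANAC055 and ANAC072 (large points) among the 47 NAC genes tested (grey points: the others; bar: median of all 47; dashed line: no change). ANAC055 ranks 2nd in all of these comparisons, ANAC019 lies at the median at 18 d and 5th from 22 d on, and ANAC072 stays near the median at 22 and 26 d.

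The unequal change was tested within each sample, where scaling cancels. The log2 ratio of ANAC055 to ANAC072 averaged -2.74 ± 0.43 at 26 d (SD, n = 8) and -5.22 ± 0.93 at 14 d (SD, n = 10), a difference of 2.48, with 8 of 8 samples at 26 d above every sample at 14 d (exact two-sided permutation p = 4.6e-05, adjusted 0.00021 over 9 ratio comparisons). The ratio of ANAC019 to ANAC072 averaged -1.21 ± 0.29 at 26 d and -2.90 ± 0.45 at 14 d (SD, n = 8 and 10), a difference of 1.69 in the same direction in 8 of 8 samples (exact permutation p = 4.6e-05, adjusted 0.00021). This p is the smallest that the 43758 arrangements can give. The sizes of these ratios carry the efficiencies of the probes, and their differences between ages do not. ANAC055 relative to ANAC019 was 1.33 higher at 18 d than at 14 d (exact permutation p = 0.018, adjusted 0.032; 3 of 8 samples beyond every sample at 14 d), and by 0.79 at 26 d (p = 0.068 by the same exact test, adjusted 0.076; 0 of 8 beyond). Without sample A2 of 14 d that last difference was 0.98 (adjusted p = 0.02), so 1 library decided its side of the threshold. Letters also differed in direction, and the test took no account of them. In letter A the mean log2 ratio of ANAC055 to ANAC019 was lower at 26 d (-1.89) than at 14 d (-1.52). It was higher at 26 d in letters B (-1.31 against -1.78), C (-1.18 against -2.92) and D (-1.74 against -3.84).

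Relatives and other groups of NAC genes give the frame for these changes. The other 4 SNAC-A genes on the probe set are ANAC002 (ATAF1), ANAC032, ANAC081 (ATAF2) and ANAC102, which act in stress responses. At 26 d against 14 d 4 of 4 were called higher, where 83% of all 47 genes were, with a median log2 change of 1.03, close to that of all genes; with TMM 2 were and with DESeq2 1. ANAC032 rose by 1.504, ANAC081 by 1.16, ANAC002 by 0.90 and ANAC102 by 0.77. At 18 d against 14 d 0 of the 4 were called by edgeR, where 25.5% of all genes were called higher, with changes from -0.37 to -0.061 and only ANAC102 under an unadjusted p of 0.05 (0.033), while DESeq2 and TMM each called 1 lower. Among 7 genes known to promote leaf senescence, such as ANAC092 (ORE1) and ANAC029 (NAP), 7 were higher at 26 d with a median of 2.41, between the changes of ANAC019 and ANAC072. With a background of 83%, a list whose members were all called higher is not set apart by that count. The other lists had medians of 1.45 for 2 senescence-delaying genes (2 higher), 0.50 for 6 membrane-tethered genes (6 higher), 0.60 for ANAC017, ANAC082 and ANAC090, the genes the study singled out (3 higher), -1.38 for 4 xylem genes tested (1 higher, 3 lower) and -2.95 for 1 phloem gene tested, which was lower. The study chose its trio on these samples, so its direction is not independent evidence. With TMM and DESeq2 the counts of higher genes were 7 and 6 for the senescence-promoting, 1 and 1 for the delaying, 2 and 1 for the membrane-tethered (4 lower under both), 0 and 0 for the study's trio (2 lower under both) and 0 and 0 for the xylem genes (3 lower under both).

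The spread between wild-type samples also differed between the genes. The coefficient of variation of ANAC055 at 14 d was 89.8%, the highest of the 47 genes, whose median was 30.2%, and it was 25.2% at 26 d, where the median was 26.1%. For ANAC019 it was 47.4, 60.0, 69.5 and 30.9% at the successive ages, and for ANAC072 42.1, 14.0, 29.5 and 19.0%. At 18 d ANAC055 ranked 2nd and ANAC019 3rd by this measure while ANAC072 ranked 45th. These are descriptions of 8 or 10 samples, with no test of the difference in spread. They pool the letters, whose means of ANAC055 at 14 d ran from 17.7 normalised counts in letter D to 96.7 in letter B. Raw counts at 14 d ran from 7 to 190 for ANAC055 and from 889 to 3660 for ANAC072. Counting error is therefore relatively larger for ANAC055, and its part in the spread was not tested.

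Next, each transcript was read in the line named after it, which checks the labels. In all, 42.6% of 188 such tests in 47 lines called the target lower; for these 3 genes 12 of 12 did. The test of anac055 at 18 d is no check of its label, because its other library was left out for its level of ANAC055, and the spread of the 1 sample that remains is taken from the other groups. With the left-out libraries kept, 11 of 12 were called, and that difference was -1.48 (adjusted p = 0.078). In anac055, ANAC055 held 0.457 and 0.939 normalised counts at 14 d, then 4.48 in the only sample at 18 d, 4.69 with 4.202 at 22 d and 5.94 with 5.50 at 26 d. The raw counts behind these, from 1 to 6, lay in the range of the negative control probes of the same libraries, and wild type of letter A ran from 23.7 to 96.1 at 14 d and from 227 to 416 at 26 d. The transcript was therefore not told from background in anac055 at any age, and the exact 95% Poisson upper bounds on its share of wild type of letter A were 4.58, 6.47, 2.45 and 3.16% at the successive ages. Against wild type of all letters they were 4.57, 11.0, 2.98 and 2.11%. Such intervals cover counting error only.

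In anac019, ANAC019 held 11.98 and 4.11 normalised counts at 14 d, then 8.90 with 7.65 at 18 d and 14.6 with 5.84 at 22 d, against means of 203 ± 96.1, 247 ± 148 and 911 ± 633 in wild type (SD, n = 10, 8 and 8). At 26 d the samples of anac019 parted: A1 held 8.67 and A2 held 186, against 1404 ± 433 in wild type (SD, n = 8). The fitted log2 changes were -4.15, -4.86, -7.04 and -3.38 at the successive ages, with adjusted p-values from 1.5e-12 to 1.1e-05. Background limits how their sizes can be read, though not in every sample. Raw counts were 28 with 9 at 14 d, 5 with 4 at 18 d and 14 with 6 at 22 d. The highest negative control probe of the same libraries read 19, 8 and 11. Sample A1 thus lay above every negative control probe at 14 d (28) and at 22 d (14). At 26 d A1 read 6 and A2 read 146, where the highest negative control probe read 13. Without replicate 2 the change at 26 d was -7.04.

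The line anac072 kept a measurable part of its transcript. ANAC072 held 297 and 305 normalised counts in anac072 at 14 d, then 689 with 415 at 18 d, 518 with 689 at 22 d and 574 with 620 at 26 d, all below every wild-type sample of the same age. That is 22.4% of wild type of all letters at 14 d (exact 95% Poisson interval 21.2 to 23.6), 26.8% at 18 d (24.6 to 29.2), 24.5% at 22 d (22.8 to 26.3) and 18.9% at 26 d (18.0 to 19.9). Against wild type of letter A the shares were 27.1, 28.3, 22.0 and 19.3%. The raw counts behind these shares ran from 122 to 846, while the highest negative control probe in these libraries read 18. The log2 changes were -1.97, -1.77, -2.35 and -2.29, each with an SE of 0.28 to 0.31.

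**Figure D3:**
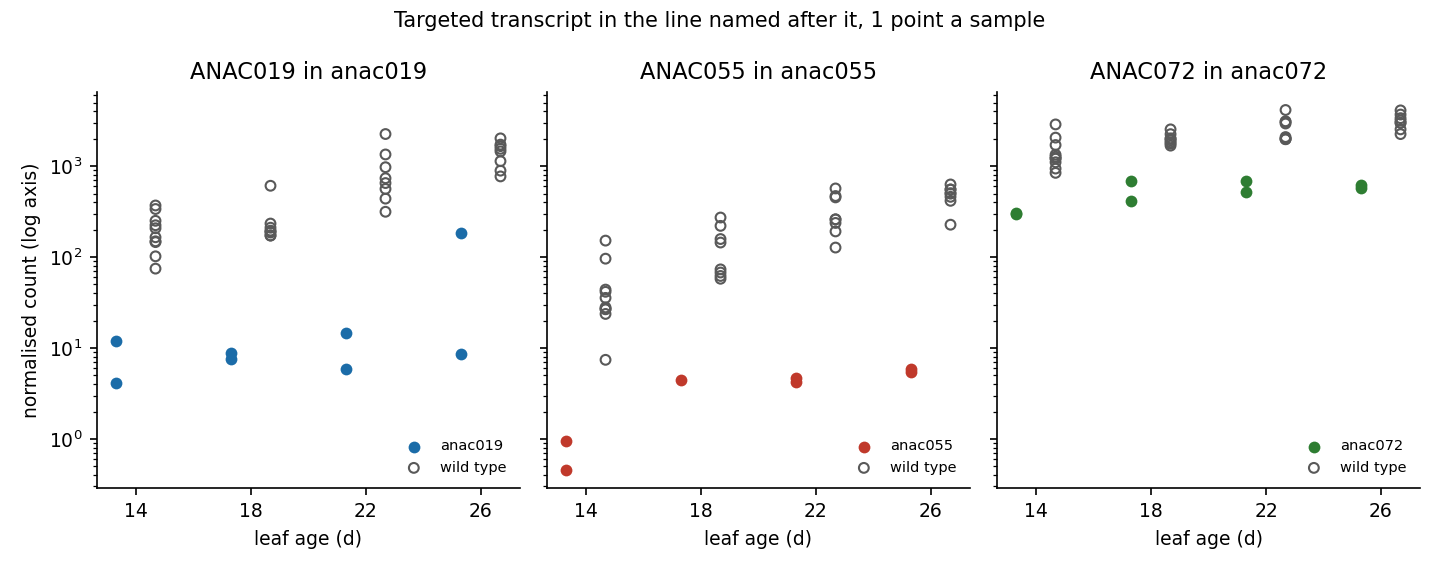
Normalised counts (log axis) of each gene in the line named after it (filled points, left) and in wild type (open circles, right) by leaf age in days, 1 point a sample; the 18 d library of anac055 that went against its label is not drawn. ANAC055 and, but for 1 sample at 186, ANAC019 lie near background in their lines, and ANAC072 stays between 297 and 689.

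Whether loss of one of these genes alters the others was asked in the 6 pairs of line and other transcript, at each of the 4 ages. Of these 24 tests, edgeR called 0 after adjustment over the 2256 pairs of line and gene at each age, 0 had an unadjusted p under 0.05, and DESeq2 also called 0. ANAC055 held 18.0 and 42.9 normalised counts in anac019 at 14 d against 23.7 to 96.1 in 4 wild-type samples of the letter, and 109 and 103 in anac019 at 18 d against 221 and 273. At 26 d it held 1152 and 361 in anac019, against 227 and 416. The log2 differences in anac019 were -0.91, -1.12, -0.40 and 1.19 at the successive ages, and the mean over the 4 ages was -0.31 (95% interval -0.94 to 0.32). The 26 d sample of anac019 with 1152 counts of ANAC055 was A1, and A2, with 361, was the sample in which ANAC019 itself read 186. The change of the ANAC055 difference in anac019 between 14 and 26 d was 2.10 (SE 0.88, unadjusted p = 0.022, edgeR adjusted p = 0.88). With the sample number as a block it was 2.80 (SE 0.71, adjusted p = 0.041), so its call depends on whether the number is in the model.

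In anac072 the mean difference over the 4 ages was -0.55 for ANAC055 (95% interval -1.19 to 0.081, adjusted p = 0.81) and -0.18 for ANAC019 (-0.79 to 0.43). At 22 d ANAC019 held 263 and 847 normalised counts in anac072 against 563 and 2259 in wild type of the letter, a log2 difference of -1.25 (SE 0.63, unadjusted p = 0.055, adjusted 1). The 263 rests on 62 raw counts of a shallower library, with a reference mean of 10171.5 against 41019.5 in wild type A1. In anac055 the mean difference was -0.14 for ANAC019 (-0.80 to 0.52) and -0.15 for ANAC072 (-0.46 to 0.17). For ANAC072 in anac019 it was -0.13 (-0.42 to 0.17). The intervals for ANAC072 are narrower than those for ANAC019 and ANAC055, so a smaller effect on ANAC072 could have been seen. A p above the threshold does not show that the levels were equal.

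Over all 48 lines of other genes, 144 pairs of line and transcript were tested at each age. By edgeR 0 of them were called at 14, 18, 22 or 26 d, where 1.42, 0.222, 0.133 and 0.355% of all 2256 pairs were called; at an unadjusted p under 0.05 there were 11, 9, 3 and 11 pairs, against 7.18, 4.74, 3.81 and 5.67% of all pairs. With the sample number as a block 2, 1, 0 and 1 of the 144 were called, where 2.75, 0.532, 0.399 and 0.754% of all pairs were. These were ANAC055 in anac056 at 14 d (1.76) and 18 d (2.04), in anac092 at 14 d (-1.36) and in anac017 at 26 d (2.13). The target of anac092 was called lower at 0 of 4 ages, and that of anac017 higher at 4 of 4. DESeq2 called 1 pair at 14 d, ANAC055 in anac056 (log2 difference 2.08, adjusted p = 0.038), and 0 at the other ages. The log2 differences ran from -1.504 to 1.72 for ANAC019, from -1.39 to 2.02 for ANAC055 and from -0.81 to 0.93 for ANAC072. At 18 d ANAC019 lay above wild type in 41 of 48 lines, with a median difference of 0.60. At 26 d ANAC055 lay above it in 40 of 48, with a median of 0.34, and at 14 d ANAC072 lay below it in 38 of 48, with a median of -0.25. How one-sided the other genes were was not counted. All samples of a line lay above every wild-type sample of its letter and age in 13, 47, 7 and 31 of the 144 pairs at the successive ages and below in 15, 13, 7 and 18, where 27.1, 34, 25.4 and 27.5% of all 2256 pairs did either. An unadjusted p under 0.05 at 2 or more ages was found for 4 of the 144 pairs, against 2.44% of all pairs. Lines of a letter share their 2 to 4 wild-type samples of an age, so such one-sided medians carry the level of those few samples.

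The change of the line effect between 14 and 26 d was called for 0 of 144 pairs by edgeR, with 13 under an unadjusted p of 0.05, and by DESeq2 for 0; over all pairs 0.133% were called, and 4.83% unadjusted. With the block 3 were called, ANAC055 in anac017 (3.29) and anac019 and ANAC019 in anac032 (2.91), against 0.488% of all pairs. Many lines did not lower their own target, and no absence of effect can be read from those: of 47 lines whose target was tested, the target was called lower at 0 of the 4 ages in 21 and at all of them in 15. The lines are therefore given by the role of their gene together with the state of their target. Among the lines of SNAC-A relatives, the target was lower at 0 of 4 ages in anac002 and anac032, at 1 in anac102 and at 4 in anac081. In anac032 it was called higher at 2 of 4 ages. In these 4 lines of SNAC-A relatives, 0 of 16 tests were called for each of the 3 transcripts, and the median log2 difference was 0.48 for ANAC019, 0.23 for ANAC055 and 0.061 for ANAC072. An unadjusted edgeR p under 0.05 was found in 4 of the 16 tests of ANAC019 and in 0 of 16 for ANAC055 and for ANAC072. Over all pairs the share was 3.81 to 7.18%, depending on the age. The median hides opposite signs: in anac032 the difference of ANAC019 ran from -1.27 to 1.21 over the ages. In the lines of the senescence-delaying genes, the line labelled anac042 (JUB1), whose own target was called lower at 0 of 4 ages, and anac083 (VNI2), where it was at 4 of 4, the means over the 4 ages were -0.38 and -0.37 for ANAC072 (adjusted p = 0.46 and 0.47) and -0.32 and -0.80 for ANAC055 (adjusted p = 0.97 and 0.47), in each case below wild type and short of the threshold in the model without the block. With the block the mean of ANAC055 in anac083 was called (-0.98, adjusted p = 0.016). The lines of senescence-promoting, membrane-tethered, xylem and phloem genes and of ANAC017, ANAC082 and ANAC090 had medians between -0.54 and 0.50, with 0 calls at a single age in the model without the block. Of these, the target was lower at none of the ages in 3 of 7 senescence-promoting lines (anac059, anac087 and anac092), 2 of 6 membrane-tethered lines (anac017 and ntl9), 2 of the 3 lines anac017, anac082 and anac090, and 1 of 4 xylem lines with a tested target (anac104). In anac087, anac017 and ntl9 the target was called higher at 4 of 4 ages, by 3.63 to 7.10, 1.13 to 1.67 and 0.85 to 1.18 on the log2 scale. The medians thus pool lines with a raised target and lines with a lowered one.

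**Figure D4:**
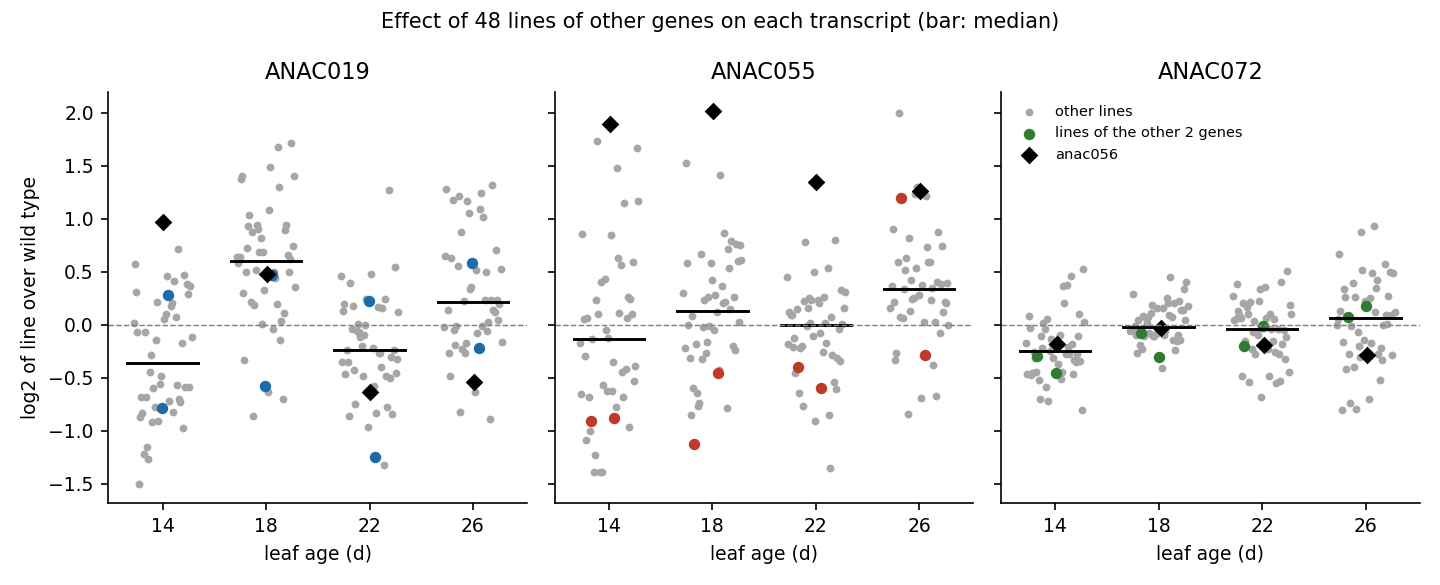
Log2 difference of each of 48 lines of other genes from wild type, by leaf age in days, for ANAC019, ANAC055 and ANAC072 (1 point a line; bar: median of the lines; dashed line: no difference). The black diamond is anac056, the highest of all lines for ANAC055 at 14, 18 and 22 d; coloured points are the lines of the other 2 genes.

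One line stood out for ANAC055 across the ages. The gene next to ANAC055 on chromosome 3 is ANAC056 (AT3G15510, also named NARS1), with no protein-coding gene and 1 other annotated gene between them in the RefSeq annotation of TAIR10.1; ANAC056 is known to act in seed coat and embryo development. In anac056, ANAC055 held 325 and 201 normalised counts at 14 d, against 152 and 41.6 in wild type of letter B. It held 537 and 472 at 18 d, against 158 and 67.7, then 797 and 1137 at 22 d, against 260 and 454, and 1199 and 1388 at 26 d, against 553 and 555. Both samples of anac056 lay above every wild-type sample of any letter at each of the 4 ages. Over all pairs, 0.754% lay beyond the wild-type samples of their letter at all 4 ages.

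The log2 differences were 1.89, 2.02, 1.34 and 1.26 at the successive ages. None passed the test at a single age by edgeR (adjusted p = 0.11, 0.39, 1 and 0.85; 0.017 at 14 d and 0.019 at 18 d with the sample number as a block), although each had an unadjusted p under 0.05, as 0.355% of all pairs did at all 4 ages. Because of this run of values a mean over the 4 ages was tested in addition, a test chosen after seeing the data. It gave a difference of 1.63 (SE 0.32, 95% interval 0.99 to 2.27, edgeR adjusted p = 0.00012 over 2256 pairs). It was the only one of the 144 pairs called, where 1.15% of all 2256 were called; 14 of the 144 had an unadjusted p under 0.05, against 7.62% of all. With the block 3 were called, ANAC055 in anac056 (1.65), anac076 (1.003) and anac083 (-0.98), against 1.95% of all pairs. Without replicate 1 the difference was 1.56 and the adjusted p 0.054, so the call is lost without that replicate. The mean difference in anac056 was 0.070 for ANAC019 (SE 0.32, adjusted p = 1) and -0.17 for ANAC072 (SE 0.15, adjusted p = 0.95).

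The reverse pair moved the same way. ANAC056 held 1178 and 1086 normalised counts in anac055 at 14 d, against 427 to 624 in 4 wild-type samples of letter A. It held 2204 in the only sample at 18 d, against 1234 and 1503, then 3800 and 3273 at 22 d, against 1791 and 2164, and 3269 and 3063 at 26 d, against 1718 and 1831. The log2 differences were 1.14 (edgeR adjusted p = 3.6e-06), 0.80, 0.76 and 0.76, of which the later ones missed the threshold (adjusted p = 0.39, 0.14 and 0.098; 0.0077 at 22 d and 0.0044 at 26 d with the block). The mean over the 4 ages was 0.86 (SE 0.11, 95% interval 0.64 to 1.09, adjusted p = 9.6e-11).

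The target of anac056 itself was only partly lower. ANAC056 held 422 and 415 normalised counts in anac056 at 14 d, then 995 with 649 at 18 d, 1565 with 984 at 22 d and 1559 with 1463 at 26 d, against 482 ± 103, 1006 ± 263, 1745 ± 314 and 1867 ± 168 in wild type (SD, n = 10, 8, 8 and 8). The log2 difference passed the test at 22 d (-0.59, adjusted p = 0.013) and not at 14 d (-0.46, adjusted p = 0.055), 18 d (-0.32, 0.2) or 26 d (-0.29, 0.24). Its mean over the 4 ages was called lower, at -0.42 (95% interval -0.63 to -0.21, adjusted p = 0.00039). Wild type of letter B held 597 and 612 normalised counts of ANAC056 at 14 d, 824 with 1070 at 18 d, 1975 with 2053 at 22 d and 1810 with 2071 at 26 d, so that the samples of anac056 lay below it at all ages but 18 d. ANAC019 has an adjacent NAC gene too, ANAC018 (AT1G52880, also named NARS2), with no annotated gene between them. For that pair the mean difference over the 4 ages was -0.036 for ANAC019 in anac018 (95% interval -0.66 to 0.59) and -0.052 for ANAC018 in anac019 (-0.19 to 0.088). In anac018 its own target was lower at all 4 ages, by -1.81 to -1.20 on the log2 scale.

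**Figure D5:**
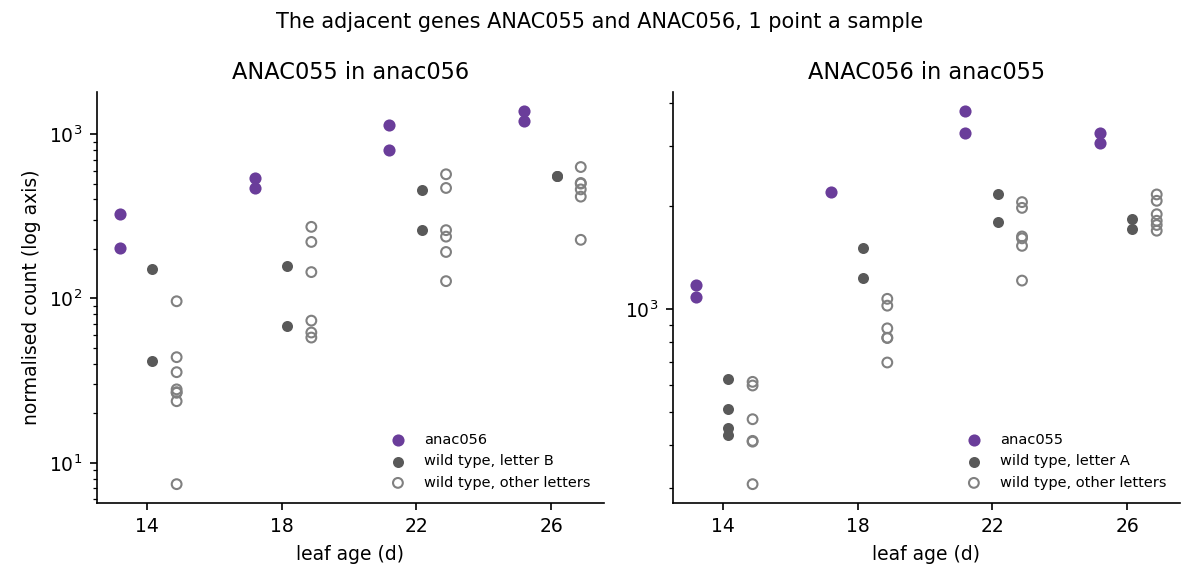
Normalised counts (log axis) by leaf age in days of ANAC055 in anac056 (left panel) and of ANAC056 in anac055 (right panel), 1 point a sample: the line left, wild type of the letter of the line in the middle, wild type of the other letters right. All samples of the lines lie above all wild-type samples of the same age in both panels.

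Finally, transcripts that varied alongside the 3 genes were sought among all samples used, after subtraction of the mean of the samples of the same age and letter and without the lines named after either gene. Pearson correlations are descriptions over 408 to 418 samples that share reference genes and, within a sample, the library. ANAC019 was most like ANAC047 (r = 0.72), then ANAC072 (0.65) and ANAC002 (0.61), and least like ANAC014 (-0.23). ANAC055 was most like ANAC092 (0.61), then ANAC029 (0.59) and ANAC072 (0.51), and least like ANAC028 (-0.23). ANAC072 was most like ANAC019 (0.65), then ANAC029 (0.59) and ANAC055 (0.51), and least like ANAC048 (-0.16). Each of the 3 ranked the other members high among 46 genes, the lowest place being 7th for ANAC055 beside ANAC019 (r = 0.50); the medians over the 46 genes were 0.26 for ANAC019, 0.11 for ANAC055 and 0.16 for ANAC072. Between ANAC019 and ANAC055 r was 0.46, 0.29, 0.47 and 0.76 at the successive ages, and between ANAC019 and ANAC072 0.42, 0.65, 0.77 and 0.72.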

How the data were processed

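Raw counts of 67 probes were deposited by the authors as 1 table per leaf age; per the labels' protocols, 100 ng of total RNA entered each reaction. A further table of log2 values deposited by the authors, whose making the labels do not describe, served as an alternative. Neither counting software nor genome build is given in the sources used here. All 53 gene loci matched a RefSeq table of TAIR10.1, used for names and neighbours.

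A single quasi-likelihood model of 432 samples (edgeR 4.0.16 under R 4.3.3) held a mean for every genotype at every age, the title letter within age and the reference mean as offset. UBQ10 gave 80.6% of reference counts in the median sample. Genes were tested if their mean raw count exceeded the negative probes' mean plus 2 SD (12.6 counts), which left 47 genes; the threshold was an adjusted p of 0.05. P-values were adjusted over 47 genes per pair of ages, over 188 tests of targets, and over 2256 pairs of line and other gene per age, for the change with age and for the mean over ages. Ratios used log2 of raw counts, each plus 1. Correlations used log2 of the normalised count plus 1. Tests across genes were tried on simulated data.

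The members, gene lists (SNAC-A relatives, senescence-promoting, senescence-delaying, membrane-tethered, study's trio, xylem, phloem), rule for named lines and alternatives were chosen with earlier results of these data known. Lines were to be named where an adjusted call came with every sample beyond wild type of the letter; none met this at a single age, so ANAC055 in anac056, and with it ANAC056 in anac055, was named after its values were seen. The 3 most and the 1 least correlated genes were named per member. Of 345 pairs of samples of a group, 0 agreed within sampling noise. Alternatives were TMM, DESeq2 1.42.0, limma 3.58.1 on the authors' log2 values or after background subtraction, other references, filters and covariates, a fit per age, samples left out and a replicate block. DESeq2 was fitted by age set, since its dispersions failed in the model of all samples, and its adjusted p-values came from the same families.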

Additional observations from a re-analysis of the deposited data

Results flagged for a closer look

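In wild type at 18 d, sample D1 held 609 normalised counts of ANAC019, apart from the other 7 samples, which lay between 173 and 234. In wild type at 26 d, sample A1 held 227 normalised counts of ANAC055, below the other 7 samples, which lay between 416 and 630. Each was singled out by Dixon's criterion on the log2 scale, its gap to the nearest sample being 0.759 and 0.593 of the range of the group, above the critical value of 0.526 for 8 samples. Of 24 groups checked 2 were singled out, and chance singles out about 1 group in 20.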

How the results depend on the processing

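The change of ANAC072 at 26 d against 14 d lost its call with DESeq2 (0.16, adjusted p = 0.30). Its change at 22 d against 14 d lost the call with TMM (0.26, adjusted p = 0.085) and DESeq2 (0.18, adjusted p = 0.25). That at 18 d against 14 d lost it with DESeq2 (0.29, adjusted p = 0.064). With TMM (-0.072) and DESeq2 (-0.12) ANAC072 turned sign at 22 d against 18 d, and with DESeq2 (-0.020) at 26 d against 22 d; ANAC019 turned sign at 18 d against 14 d without wild type D1 of 18 d (-0.051, the range over samples left out being -0.051 to 0.34). These scalings lower the median change of all genes, as given above; beyond that the cause was not tested. The ratio of ANAC055 to ANAC019 at 26 d against 14 d ran from 0.59 to 0.98 with wild-type samples left out.

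Pairs of a line and another transcript called at 14 d, 0 in the model reported, numbered 1 with DESeq2, 1 without the letter covariate, 1 with limma on the authors' log2 values, 2 with the replicate block, and 0 to 1 with samples left out, the 1 being ANAC055 in anac056 without wild type B1 of 14 d (2.98). At 18 d they numbered 1 without the letter covariate, 1 with each age fitted by itself and 1 with the replicate block, and at 26 d 1 with the replicate block. The replicate block also called 3 changes between 14 and 26 d and 3 pairs on the mean over the ages, where the fit without letter covariate called 3 and leaving out replicates gave 0 to 1. Same-numbered samples did not always deviate together (144 of 198 pairs correlated above 0.1), which falls short of pairing every group, although numbers of a letter shared levels at some ages, most of all at 22 d; the fit without the block is the one reported. ANAC055 in anac055 at 18 d was -1.48 (adjusted p = 0.078) with the left-out libraries kept. The mean over ages of ANAC056 in anac055 ran from 0.77 to 1.04 over 12 other alternatives and was called in all 12.

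With 2 samples a line, differences of ANAC019 and ANAC055 at 1 age well above their SE of about 0.6 could go uncalled. The difference of ANAC055 in anac056 at 18 d, 2.02 (SE 0.66), had an edgeR adjusted p of 0.39. The 0 calls at single ages therefore do not exclude changes of that size. The depth of the ANAC055 probe at 14 d limits its level there.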
